A study of Homo sapiens with 4 samples.

Results

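The genes described here are 10 members of the vascular endothelial growth factor (VEGF) system and its relatives: the VEGF receptors KDR, FLT1 and FLT4, the neuropilins NRP1 and NRP2, the ligands VEGFA, VEGFB, VEGFC and PGF, and the platelet-derived growth factor receptor PDGFRA. They were taken by name from 60483 gene identifiers in the count tables, with earlier results of these data known. KDR was chosen by its measured counts, for a high level and a lower one in the knockout. Its values are therefore a description without a test. The cells were H9 cells (WA09), an established line of human embryonic stem cells, sequenced as poly(A)-selected RNA in 2 libraries with the genotype control (control 1 and control 2) and 2 with SLC35F2 knocked out (KO 1 and KO 2). No treatment is named for either group, and no source used here says how the knockout was made, or whether the libraries of a group are separate clones or cultures, so p-values reflect only how these samples spread, which can be technical. The comparison asks what changes in stem cell RNA once SLC35F2 is lost, a solute carrier of the cell membrane.

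VEGF ligands are secreted dimers that bind receptor tyrosine kinases on the cell surface. KDR (VEGFR2) is the main signalling receptor for VEGFA, FLT1 (VEGFR1) binds VEGFA, VEGFB and PGF tightly and signals weakly, FLT4 (VEGFR3) is the receptor for VEGFC, and neuropilins are co-receptors that also bind semaphorins. The system is best known from blood and lymph vessels, but human pluripotent stem cells also transcribe KDR, and KDR and PDGFRA are used as surface markers of early mesoderm.

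The stretches of DNA before the start sites of KDR, FLT1 and PDGFRA are shown because these are the VEGF receptor with the most RNA, the receptor that differed most between the KO libraries among VEGF receptors, and the PDGF receptor that lies on the same chromosome arm as KDR. Each is the 250 bases before an annotated start, 5' to 3' on the gene's strand, from RefSeq on GRCh38.p14. Capitals mark GC boxes, TATA boxes and cAMP response elements, searched on both strands. The KDR stretch is chr4:55125596-55125845 (minus strand), the FLT1 stretch chr13:28495129-28495378 (minus strand), and the PDGFRA stretch chr4:54233710-54233959 (plus strand), before the downstream of its 2 listed starts.
KDR: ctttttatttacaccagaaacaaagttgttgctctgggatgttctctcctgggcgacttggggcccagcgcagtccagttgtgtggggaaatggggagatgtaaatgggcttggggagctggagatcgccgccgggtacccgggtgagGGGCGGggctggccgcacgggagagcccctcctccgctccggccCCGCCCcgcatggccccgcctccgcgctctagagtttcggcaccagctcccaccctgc
FLT1: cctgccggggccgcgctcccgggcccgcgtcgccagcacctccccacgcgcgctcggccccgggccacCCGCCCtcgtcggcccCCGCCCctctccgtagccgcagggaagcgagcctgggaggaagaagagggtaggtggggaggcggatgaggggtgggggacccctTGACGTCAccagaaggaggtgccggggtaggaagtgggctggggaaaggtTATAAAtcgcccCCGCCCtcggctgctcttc
PDGFRA: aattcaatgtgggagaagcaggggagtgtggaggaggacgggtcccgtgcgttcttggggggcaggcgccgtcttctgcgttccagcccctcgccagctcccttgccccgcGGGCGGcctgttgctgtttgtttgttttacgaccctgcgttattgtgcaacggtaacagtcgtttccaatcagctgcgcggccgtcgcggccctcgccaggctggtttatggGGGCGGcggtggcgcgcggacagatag

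A GC box was searched as GGGCGG. The other motifs were the TATA box, with the letters TATAAA, and the cAMP response element TGACGTCA. The KDR stretch held 2 GC boxes, at 102 and 58 bases before the start, and no TATA box. The FLT1 stretch held 3 GC boxes, a TATA box 31 bases before the start and a cAMP response element 81 bases before it. The PDGFRA stretch held 2 GC boxes and neither other motif. The stretch before the upstream start of PDGFRA, not shown, held none of the 3 motifs and had a GC content of 46.8%. Of all 35116 stretches of this length in the table, 42.6% held a GC box, 10.7% a TATA box and 1.65% a cAMP response element. The core of the hypoxia response element (ACGTG, in 18.5% of all stretches, overlapping none of the other motifs) was in none of the 9 stretches listed for 7 members (KDR, FLT1, VEGFB, VEGFC, PGF, NRP2 and PDGFRA). GC content was 65.2% for KDR, 73.2% for FLT1 and 64.0% for PDGFRA. These matches are letters in a window and say nothing about binding.

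The libraries held between 27824693 and 37978705 reads assigned to genes. SLC35F2 itself stood at 41.1 and 27.1 CPM in control 1 and control 2 and at 12.1 and 9.65 CPM in KO 1 and KO 2. CPM is each gene's share of the reads in a library, scaled with TMM factors. Both KO libraries lay below both controls, in the direction of the labels, as for 16.3% of all genes tested. SLC35F2 RNA remained in both, so these levels alone do not establish the knockout. Markers of pluripotent cells were abundant in all 4 libraries, with POU5F1 between 227 and 401 CPM. Of 19027 genes tested, 5 passed an adjusted p of 0.05 in edgeR's quasi-likelihood test (0.0263%). Of the 9 members other than KDR, 0 passed this test, 1 (PDGFRA) had an unadjusted p under 0.05, and DESeq2 called 0 as well, with a background of 0.315% of genes called. A fit with the replicate number as a block also called 0 of the 9, where it called 0.399% of all genes. All 10 members exceeded the limit of the filter on low counts in each of the 4 libraries, so none was tested only because it was high in one group. In bulk RNA, fewer cells of a type and less RNA per cell cannot be told apart.

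**Figure D1:**
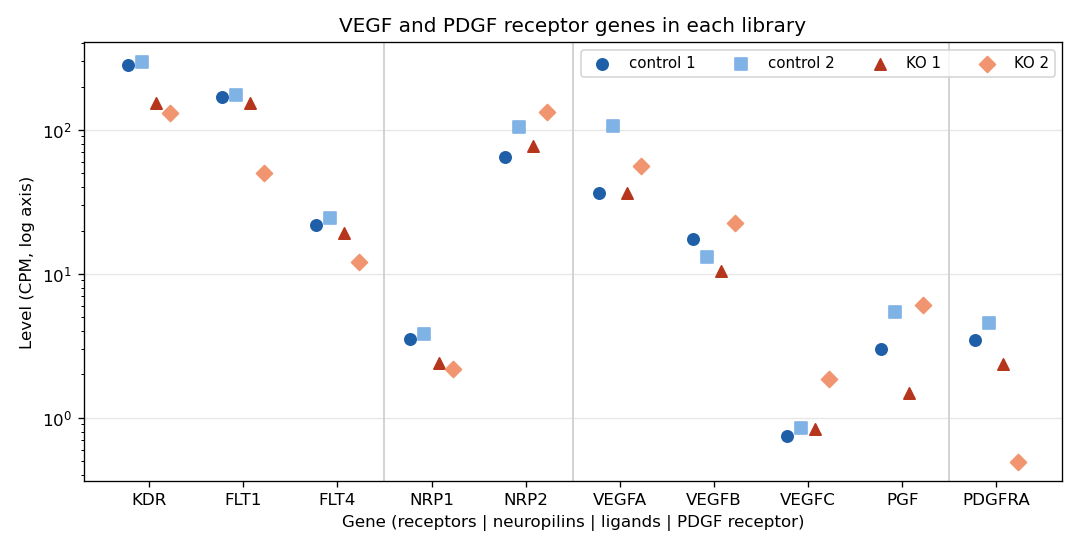
Level of each gene in CPM on a log axis, with 1 point per library. KDR lies between 131 and 294 CPM and both KO points lie below both controls, while the PDGFRA point of KO 2 lies at 0.497 CPM against 2.36 to 4.59 CPM in the other libraries.

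KDR was about 2-fold lower in both KO libraries than in the controls. KDR (ENSG00000128052.8, chromosome 4, 55078259 to 55125595, minus strand of GRCh38) had 10583, 10458, 4240 and 4481 reads in control 1, control 2, KO 1 and KO 2. As scaled levels these were 280, 294, 154 and 131 CPM. The groups did not overlap, and the replicates of each group lay close together. The control mean was 287 ± 9.83 CPM (SD, n = 2) and the KO mean 143 ± 16.4 CPM (SD, n = 2), a 2.02-fold difference and a log2 fold change of -1.01. Over the 14 alternative settings the log2 fold change lay between -1.14 and -0.90. An antisense gene, AC111194.2, crosses KDR without sharing exons and had 1, 10, 0 and 0 reads in the order control 1, control 2, KO 1 and KO 2.

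FLT1, the high-affinity receptor for VEGFA, VEGFB and PGF, was low in KO 2 and near the controls in KO 1. FLT1 (ENSG00000102755.9, chromosome 13, 28300344 to 28495145, minus strand) had 168, 175, 155 and 50.3 CPM in control 1, control 2, KO 1 and KO 2. KO 1 thus lay just below the controls, and KO 2 was 3.07-fold below KO 1. The means were 172 ± 5.26 CPM (SD, n = 2) and 103 ± 73.8 CPM (SD, n = 2). The log2 fold change was -0.74 ± 0.46 (SE), with a 95% confidence interval from -1.81 to 0.32 and an edgeR adjusted p of 0.997. Without KO 1 the log2 fold change was -1.76 and FLT1 was called (edgeR adjusted p = 0.000532), in a fit that called 5.31% of all genes tested. Without KO 2 it was -0.15 and FLT1 was not called, in a fit that called 0.927%. With 1 KO library left, both fits take its spread from the controls.

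FLT4, the receptor for VEGFC on lymphatic vessels, was lower than in both controls in each KO library, by less than KDR in fold. FLT4 (ENSG00000037280.14, chromosome 5, 180601506 to 180649624, minus strand) had 21.8, 24.4, 19.3 and 12.02 CPM in control 1, control 2, KO 1 and KO 2. Here too KO 2 was the lowest library. Its log2 fold change of -0.57 ± 0.35 (SE) had a 95% confidence interval from -1.37 to 0.24, and it was not called (edgeR adjusted p = 0.997). Without KO 1 it was -0.93 and without KO 2 it was -0.26.

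The co-receptors were not called. NRP1 (chromosome 10, 33177492 to 33336262, minus strand) had 3.55 and 3.80 CPM in the controls against 2.40 and 2.19 CPM after knockout, from 134, 135, 66 and 75 reads. Both KO libraries lay below both controls, and the log2 fold change of -0.68 (95% confidence interval -1.79 to 0.43) was not called. NRP2 (chromosome 2, 205681990 to 205798133, plus strand) had 65.0, 105, 77.6 and 132 CPM in control 1, control 2, KO 1 and KO 2, so its groups overlapped. Its log2 fold change was 0.30 (95% confidence interval -0.50 to 1.11), which was -0.13 without KO 2. NRP2 shares exonic sequence with an antisense gene, AC007362.1, which had between 1 and 16 reads.

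PDGFRA, the receptor for PDGF-A and PDGF-C, was scarce in every library and lowest in KO 2. PDGFRA (ENSG00000134853.10, chromosome 4, 54229097 to 54298247, plus strand) had 132, 163, 65 and 17 reads in control 1, control 2, KO 1 and KO 2. As scaled levels these were 3.50, 4.59, 2.36 and 0.497 CPM. Both KO libraries lay below both controls, and KO 1 was 4.75-fold above KO 2. The log2 fold change was -1.55 ± 0.68 (SE), with a 95% confidence interval from -3.10 to -0.01, an edgeR p of 0.049 before adjustment and an edgeR adjusted p of 0.997. Without KO 1 the log2 fold change was -3.00, and without KO 2 it was -0.77. With 1 KO library left, both fits take its spread from the controls. PDGFRA shares exons on its own strand with the annotated gene AC058822.1, for which the data give no count.

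The ligands differed as much within the groups as between them. VEGFA (chromosome 6, 43770184 to 43786487, plus strand), the main ligand of KDR, had 36.3, 107, 36.2 and 55.8 CPM in control 1, control 2, KO 1 and KO 2. The controls thus differed 2.94-fold, and control 1 and KO 1 were nearly equal. The log2 fold change of VEGFA was -0.64 (95% confidence interval -1.75 to 0.48), and it was 0.34 without control 2 and -1.21 without control 1. VEGFB (chromosome 11, 64234538 to 64238793, plus strand), a ligand of FLT1, had 17.6 and 13.0 CPM in the controls against 10.4 and 22.7 CPM after knockout. KO 1 was its lowest and KO 2 its highest library, and its log2 fold change of 0.12 (95% confidence interval -0.86 to 1.10) turned to -0.01 with library size only. PGF (chromosome 14, 74941834 to 74955784, minus strand), placental growth factor, had 3.0 and 5.40 CPM in the controls against 1.49 and 6.05 CPM after knockout, with a 4.06-fold difference between the KO libraries. VEGFC (chromosome 4, 176683538 to 176792727, minus strand), the lymphatic ligand, had 28, 30 and 23 reads in control 1, control 2 and KO 1 and 64 reads in KO 2. Its log2 fold change was 0.80 (95% confidence interval -0.62 to 2.23). None of the 4 ligands was called (edgeR adjusted p = 0.997 for each).

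**Figure D2:**
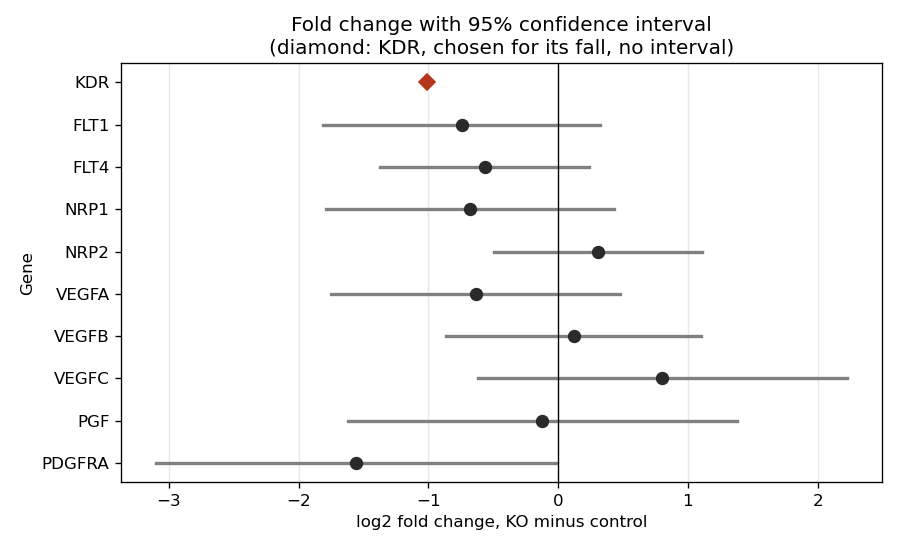
Log2 fold change of KO over control for each gene, with its 95% confidence interval from edgeR as a bar. KDR is shown at -1.01 as a diamond without an interval, and the interval of PDGFRA ends at -0.01 while those of the other tested genes include 0.

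Of the 9 members other than KDR, 4 (FLT1, FLT4, NRP1 and PDGFRA) had both KO libraries below both controls, 0 had both above, and 5 overlapped. Over all genes tested, 16.3% had both KO libraries below both controls and 15.8% had both above. The 4 that did not overlap are all receptors or co-receptors, while NRP2 and each of the 4 ligands overlapped. The median log2 fold change of the 9 was -0.57, against 0.03 over all genes tested. The members were chosen with earlier results of these data known, so these counts and this median are a description of the chosen genes. FLT1, FLT4 and NRP1 stayed below the controls in both KO libraries with RLE, upper-quartile and quantile scaling and with library size only, as did PDGFRA. With quantile normalisation VEGFC lay above the controls in both KO libraries.

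Per length, KDR RNA had the highest level of the 10 genes. KDR was chosen in part for its high level, so its rank is a description. RPKM (CPM per kilobase, over the union of annotated exons) averaged 32.8 for KDR over the 4 libraries, and 92.0% of tested protein-coding genes lay below it. FLT1 followed with 10.9 RPKM, VEGFB with 10.3, NRP2 with 6.84, VEGFA with 4.07 and FLT4 with 2.19. PGF had 0.669 RPKM, VEGFC 0.444, PDGFRA 0.281 and NRP1 0.259. The lowest KDR value, 19.97 RPKM in KO 2, exceeded the highest FLT1 value of 13.9 RPKM, and the lowest FLT4 value, 1.36 RPKM, exceeded the highest PGF value of 1.02 RPKM. All other neighbours in this order overlapped in their ranges. The order depends on the length used. VEGFA has an exon union of 14.4 kb, most of its gene span, but a longest coding transcript of 3.54 kb. Per kilobase of the longest coding transcript KDR (35.5) and FLT1 (19.3) stayed first and next, and VEGFA (16.6), NRP2 (14.3) and VEGFB (11.5) followed.

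The shares of KDR and FLT1 in the VEGF receptor RNA differed from those of the controls in opposite directions in KO 1 and KO 2, while FLT4 had a higher share in both. By exon union, KDR made up 73.0% and 72.9% of the summed receptor RNA per kilobase in control 1 and control 2, 61.9% in KO 1 and 78.8% in KO 2. FLT1 made up 22.8% and 22.7% in the controls, 32.4% in KO 1 and 15.8% in KO 2. The controls were nearly identical, and they lay between the KO libraries for both genes. FLT4 made up 4.20% and 4.48% in the controls, 5.73% in KO 1 and 5.36% in KO 2, and by longest transcript both KO libraries also lay above both controls. By longest transcript KDR had 62.8% and 62.7% in the controls, 50.4% in KO 1 and 70.3% in KO 2, again with the controls between the KO libraries. Among ligands VEGFB had the highest share by exon union in each library, from 49.3% in control 2 to 77.4% in control 1. By longest transcript VEGFA had the highest share in control 2 (70.5%) and KO 1 (54.0%) and VEGFB in control 1 (51.1%) and KO 2 (45.3%). NRP2 made up at least 93.8% of neuropilin RNA in every library by either length.

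**Figure D3:**
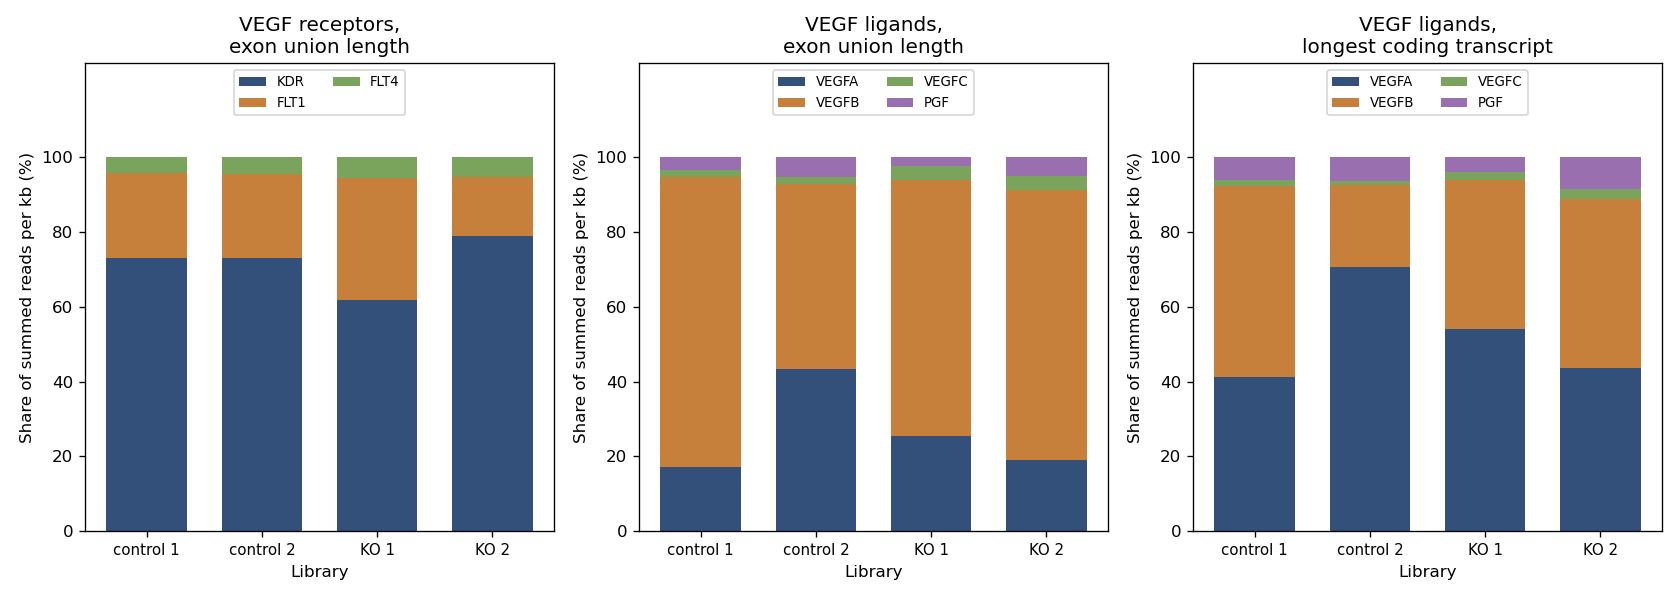
Share of each gene in the summed reads per kilobase of its family, in percent, with 1 bar per library, for receptors by exon union and for ligands by exon union and by longest coding transcript. The KDR share is 73.0% and 72.9% in the controls and 61.9% and 78.8% in KO 1 and KO 2, and the VEGFA share depends on the length used.

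KDR, KIT and PDGFRA lie in a row on chromosome 4 (4q12), within 0.896 Mb between the starts of PDGFRA and KDR. KIT, the stem cell factor receptor, had 48.1 and 39.8 CPM in the controls against 30.7 and 16.4 CPM after knockout, with a log2 fold change of -0.90 (95% confidence interval -1.72 to -0.09, edgeR adjusted p = 0.997). It lay below both controls in each KO library and was lowest in KO 2. Of the 14 tested genes other than KDR in the stretch from USP46 to CEP135, 5 had both KO libraries below both controls, among them PDGFRA and KIT, 3 had both above, and 6 overlapped, where 16.3% and 15.8% of all genes tested lay below and above. The other genes below both controls were RASL11B, LNX1 and NMU, and those above were SCFD2, FIP1L1 and CLOCK, so genes of both kinds stood on either side of KDR. The median log2 fold change of the 14 was -0.19. USP46, next to KDR in mean CPM over the 4 libraries, had 71.8, 42.9, 67.9 and 74.2 CPM in control 1, control 2, KO 1 and KO 2. The nearest tested genes after KDR, SRD5A3 (-0.22) and TMEM165 (-0.09), overlapped between the groups. The genes other than KIT, KDR, PDGFRA and USP46 were named after their values were seen.

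**Figure D4:**
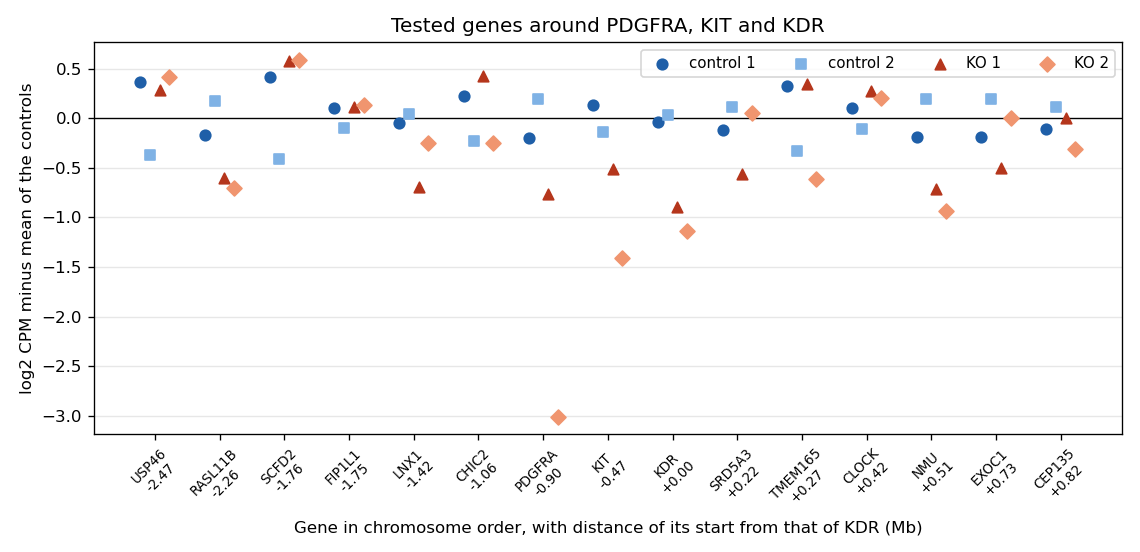
Level of each tested gene in the 4q12 stretch as log2 CPM minus the mean of the controls, in chromosome order, with 1 point per library and the distance of each start from that of KDR in Mb. PDGFRA, KIT and KDR lie below 0 in both KO libraries, and SRD5A3 and TMEM165 overlap between the groups.

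Other ligands and receptors of the PDGF and VEGF families were not called by edgeR. PDGFA, a ligand of PDGFRA, had 23.7 and 47.1 CPM in the controls against 27.2 and 12.2 CPM after knockout. PDGFB, a ligand of both PDGF receptors, had 8.43, 34.6, 2.95 and 31.6 CPM in control 1, control 2, KO 1 and KO 2, so KO 2 was 10.7-fold above KO 1. PDGFC lay between 1.38 and 2.69 CPM and PDGFD between 5.24 and 9.24 CPM, and VEGFD had 1 to 5 reads and was not tested. PDGFRB, the receptor of mural and stromal cells, had 12.9 and 24.7 CPM in the controls against 9.75 and 15.6 CPM after knockout. Of 8 tested receptors and co-receptors in this list, 3 had both KO libraries below both controls (KIT, TEK and CD44) and 0 had both above. Over all genes tested these shares were 16.3% and 15.8%. TEK, the angiopoietin receptor TIE2, had 20.5, 18.5, 7.31 and 2.52 CPM in control 1, control 2, KO 1 and KO 2. Its log2 fold change was -2.01 ± 0.51 (SE), with an edgeR adjusted p of 0.98 and a DESeq2 adjusted p of 0.0468. TEK was the 1 gene of this list called by DESeq2, which called 0.315% of all genes. TEK and CD44 were named after their values were seen.

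Genes that act downstream of the receptors were present and none was called. Of 46 genes of VEGF receptor signalling, all were tested. Both KO libraries lay below both controls for 2, SHB (an adaptor of KDR) and PRKCB (a protein kinase C). For 13 both lay above, among them PLCG1, MAPK3, SRC and PPP3CB, and 31 overlapped. Log2 fold changes were -0.85 for SHB, -0.67 for PRKCB, 0.81 for MAPK3 and 0.67 for SRC and for PPP3CB. Over all genes tested, 16.3% had both KO libraries below both controls and 15.8% had both above. The median log2 fold change of the 46 genes was 0.23, against 0.03 over all genes. SHC1 (261, 288, 280 and 307 CPM in control 1, control 2, KO 1 and KO 2), an adaptor protein, and RAC1 (258, 205, 224 and 300 CPM), a small GTPase, were the most abundant. PLCG1, the phospholipase that binds activated KDR, had 204 and 190 CPM in the controls against 237 and 207 CPM after knockout, a log2 fold change of 0.17. Of 15 phosphatases and feedback inhibitors, 1 (SPRY2) had both KO libraries below both controls and 3 (SPRED1, DAB2IP and CBL) had both above, with a median of 0.04. SPRY4, a feedback inhibitor of receptor kinases, had 191 and 391 CPM in the controls against 204 and 120 CPM after knockout, and PTPN11, the phosphatase SHP2, had 222, 189, 209 and 206 CPM. SHB, PRKCB, PLCG1, MAPK3, SRC, PPP3CB, SPRY2, SPRED1, DAB2IP and CBL were named after their values were seen.

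Among partners of the neuropilins, 13 genes (class 3 semaphorins, plexins and GIPC1) were tested and 0 were called. In both KO libraries 3 were lower (SEMA3E, SEMA3G and PLXNA2) and 1 higher (PLXNA3), with a median log2 fold change of -0.32. Over all genes tested, 16.3% had both KO libraries below both controls and 15.8% had both above. PLXNA1, a plexin that pairs with neuropilins, had 172 and 178 CPM in the controls against 203 and 135 CPM after knockout, and GIPC1, which binds the tail of NRP1, had 79.7, 58.1, 71.4 and 101 CPM. Of 11 tested genes that process VEGF proteins or hold them in the matrix, 0 were called by edgeR and 1 by DESeq2, which called 0.315% of all genes. In both KO libraries 2 were lower (CCBE1 and THBS1) and 2 higher (ADAMTS3 and GPC1), beside the same shares over all genes. HSPG2, a heparan sulfate proteoglycan, had 154 and 250 CPM in the controls against 163 and 311 CPM after knockout. THBS1, thrombospondin 1, had 90.9, 533, 33.7 and 18.3 CPM in control 1, control 2, KO 1 and KO 2, with a log2 fold change of -3.59 and an edgeR adjusted p of 0.997, and it was the gene called by DESeq2.

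VEGFA is a target of the hypoxia-inducible factors. Of 20 genes of oxygen sensing and hypoxia, 0 were called by edgeR and 1 (ADM) by DESeq2, which called 0.315% of all genes tested. In both KO libraries 3 were lower (ADM, EGLN3 and EPAS1) and 2 higher (EGLN1 and PDK1). Of all genes tested, 16.3% lay below and 15.8% above both controls in each KO library. The median log2 fold change of the 20 was 0.17. LDHA, lactate dehydrogenase, had 620, 705, 326 and 930 CPM in control 1, control 2, KO 1 and KO 2, and SLC2A1, the glucose transporter GLUT1, had 288, 440.5, 225 and 650 CPM. KO 1 was the lowest and KO 2 the highest library for both, whereas VEGFA was highest in control 2. KO 1 was also lowest and KO 2 highest for NDRG1 (1.60 and 78.0 CPM), ANKRD37 (0.691 and 4.94 CPM), BNIP3 (26.1 and 92.4 CPM) and CA9 (0.364 and 1.05 CPM). ARNT2 was instead higher in KO 1 (36.0 CPM) than in KO 2 (14.5 CPM). Others were closer in KO 1 and KO 2, with 19.8 and 24.6 CPM for EGLN3, a prolyl hydroxylase, and 62.6 and 48.3 CPM for PFKFB3, a regulator of glycolysis. ADM, adrenomedullin, had 130 and 301 CPM in the controls against 63.0 and 53.6 CPM after knockout (edgeR adjusted p = 0.58, DESeq2 adjusted p = 0.00759). It was named after its values were seen, as were NDRG1, ANKRD37, BNIP3, CA9, ARNT2, PFKFB3 and the other genes listed as lower or higher. The part of these genes' variation in the values of VEGFA was not tested.

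Of 22 markers of endothelial and blood-forming cells, 15 were tested. Of these, 4 (TEK, GATA2, ERG and CD34) had both KO libraries below both controls and 0 had both above. Over all genes tested these shares were 16.3% and 15.8%. Of the 15, 0 were called by edgeR and 2 (TEK and GATA2) by DESeq2, which called 0.315% of all genes. The log2 fold change was -5.08 for GATA2 and, in the other direction, 2.29 for VWF. None of the 22 was at 0 reads in all libraries. Their summed level was 76.3, 80.4, 45.4 and 78.3 CPM in control 1, control 2, KO 1 and KO 2, with EGFL7 (39.9, 34.3, 27.0 and 39.5 CPM) as the largest part in each library. Among markers that define endothelial cells, PECAM1 had 2, 4, 0 and 10 reads in control 1, control 2, KO 1 and KO 2, and CDH5 (VE-cadherin) had 29 to 63 reads. SOX17, a marker of endoderm as well, had 0 to 3 reads. VWF had 14.6 CPM in KO 2 and 1.03 to 2.25 CPM in the other libraries. The part of such cells in the KDR values was not tested. PECAM1, SOX17, CDH5, GATA2, ERG, CD34 and VWF were named after their values were seen.

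Markers of mesoderm, of stromal cells and of endoderm gave these levels. Over all genes tested, 16.3% had both KO libraries below both controls and 15.8% had both above. Of 16 mesoderm and heart genes, 5 had enough reads to be tested, 2 of them (TBXT and MIXL1) lay below both controls in each KO library, and MSGN1 had 0 reads in all libraries. Their summed level was 7.29 and 15.4 CPM in the controls against 4.73 and 7.52 CPM after knockout. TBX6 (1.38 to 4.88 CPM) and MIXL1 (0.439 to 1.91 CPM) were the most abundant tested genes. Of 14 stromal and mural markers, 10 were tested, 1 (RGS5) was lower in both KO libraries and 9 overlapped, with sums of 693 and 1193 CPM in the controls against 660 and 1338 CPM after knockout. THY1 (296, 376, 429 and 337 CPM) and COL1A1 (128, 300, 46.8 and 552 CPM) led this list, and DCN had 2 reads in KO 1 and 0 in the other libraries. Of 10 endoderm genes, 6 were tested, with 1 (LAMA1) lower in both KO libraries and a median of -0.23. COL4A1 (161 to 214 CPM) and LAMA1 (121 to 175 CPM) led it, and GATA6 had 3, 37, 5 and 0 reads. All 14 pluripotency markers were tested and 0 were called, with 3 lower and 1 higher in both KO libraries and a median log2 fold change of -0.05. Their summed level was 9305, 9338, 9894 and 6867 CPM in control 1, control 2, KO 1 and KO 2, so KO 2 was the lowest library. The markers lower in both KO libraries were NANOG, CDH1 and L1TD1. LIN28A (1691 to 2138 CPM), the most abundant, was the higher one, and PODXL (1398 to 2266 CPM) overlapped. Their part in the receptor values was not tested. DCN, GATA6, TBXT, RGS5, NANOG, CDH1 and L1TD1 were named after their values were seen.

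**Figure D5:**
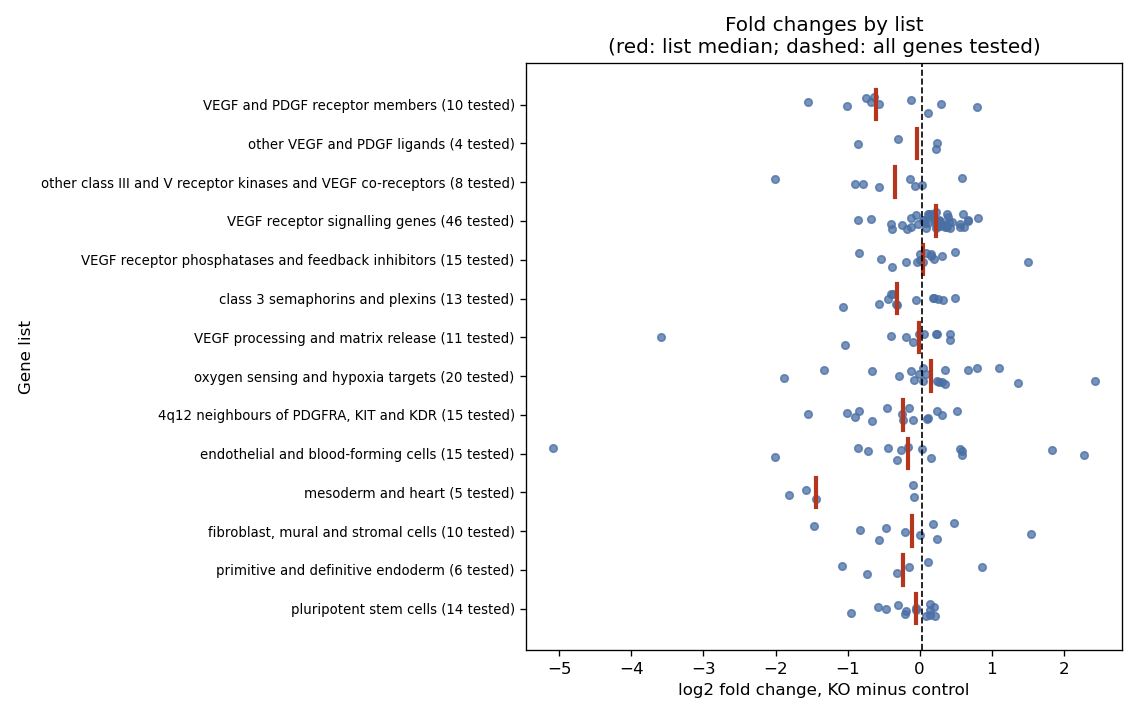
Log2 fold change of each tested gene by list, with the list median as a red bar and the median of all genes tested (0.03) as a dashed line. The red bar of the 10 VEGF and PDGF receptor genes, at -0.60, includes KDR, which was chosen for its fall. The median of the other 9 is -0.57. The median is 0.23 for VEGF receptor signalling genes and -1.44 for the 5 tested mesoderm genes.

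The genes whose pattern over the 4 libraries was most like that of KDR were ADCY2, PLPP3, SERPINE2, PIPOX and SLC7A5. They were taken from 4249 other protein-coding genes whose mean reached 50 CPM, by the distance between centred log2 levels, which ran from 0.124 to 0.257 for these 5. ADCY2, an adenylyl cyclase, had 96.8 and 112 CPM in the controls against 59.3 and 49.3 CPM after knockout. PLPP3, a lipid phosphate phosphatase, had 64.3 and 75.3 CPM and then 36.1 and 32.7 CPM. SLC7A5, an amino acid transporter, had 306 and 371 CPM against 215 and 157 CPM. With 4 libraries, this likeness is a description of these samples and carries no test.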

How the data were processed

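RNA of 2 control and 2 SLC35F2 KO libraries of H9 cells was measured. The submitters' processing notes list HTSeq 0.11.0, STAR 2.6.0a, cutadapt 1.8.1 and FastQC 0.11.7, with GRCh38 (hg38). Annotation release and strand setting: not given in the sources used here. Antisense partners may not be separated. The deposited values are raw read counts per gene. Reads given to no single gene (14.4% to 20.3% of counted alignments) were left out. Names and lengths came from GENCODE 29 (93.8% of identifiers matched). Genes were filtered with filterByExpr (minimum count 10), scaled with TMM factors and tested with edgeR 4.0.16 (quasi-likelihood F test, R 4.3.3, two-sided, Benjamini-Hochberg over all genes, threshold 0.05), with SE as the log2 fold change over the square root of F. A chi-square test of counts gave 61.5 per degree of freedom between controls and 141 between KO libraries, so none was a copy. The fit was tested on simulated data. Alternatives used DESeq2 1.42.0, limma 3.58.1, other scalings and filters, a replicate block and each library left out. The members and lists were chosen with earlier results of these data known. All members, KIT, PDGFRB and the other ligands were named, and from each list the genes called or else the 2 most abundant tested. For likeness to KDR, the 5 nearest genes were taken, with a prior count of 1 on the log2 scale. All other genes were named after their values were seen.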

Additional observations from a re-analysis of the deposited data

How the results depend on the processing

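The number of genes called over all genes was 5 with the settings above and with RLE factors. It was 0 with upper-quartile factors (801 genes with an unadjusted p under 0.05), with library size only (787), with a filter on mean CPM of 1 or more (523) and with limma-voom (692). It was 1 with quantile normalisation and with the legacy quasi-likelihood fit, 8 without a filter, 60 with DESeq2 and 76 with the replicate block, and 3 to 1096 with a library left out, the highest without KO 1 and 188 without KO 2. The cause was not tested. Of the 9 members other than KDR, 0 were called in each setting that kept all libraries. A fit with 1 library left in a group takes the spread of that group from the other, so its calls of members are not counted here. With the replicate block 0 of the 9 were called. Same-numbered libraries deviated together with a correlation of 0.32 across genes, but no label says that a number marks a shared culture or day. With library size only, the median over all genes went to -0.10 from 0.03 on the log2 scale, and VEGFB to -0.013. With a library left out, log2 fold changes ranged from -1.21 to 0.34 for VEGFA, -0.55 to 0.58 for VEGFB, -1.49 to 0.55 for PGF and -0.13 to 0.69 for NRP2, each with a change of sign. FLT1, FLT4, NRP1 and PDGFRA kept a negative sign and VEGFC a positive one in all 14 alternatives. KDR was negative in each as well, but it was chosen for its fall in these same libraries, so its sign carries no support. The counts of PDGFRA, VEGFC, PGF and NRP1, with at most 207 reads in a library, limit the precision of their fold changes.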
